A study of Mus musculus with 28 samples.

Results

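Mouse cortical neuron cultures given the topoisomerase II inhibitor ICRF-193 were compared with the same cultures given the solvent DMSO, over all genes of a whole-transcript expression array. The comparison holds 6 of the 28 arrays of the series, 3 with DMSO and 3 with ICRF-193, chosen by their titles. Both groups come from strain 129SvEv and are labelled as glutamatergic neurons isolated from the cortex at E16.5; their labels give no genotype. The labels describe 50 µM ICRF-193 or DMSO, replaced every 24 h between TN days 2 and 5, where TN names days of neurons derived from embryonic stem (ES) cells. Whether the cortical cells were treated over the same days is not stated, nor whether the replicates were separate cultures or animals. P-values thus measure the spread between arrays of a group, which may be technical, pooled over all 12 groups of the series. Other arrays enter as points of comparison. They are neurons derived from ES cells at TN day 5, given DMSO or ICRF-193 (2 arrays each, genotype not given), Top2β knockout and wild-type neurons at TN day 6 (3 arrays each), and wild-type ES cells (2 arrays), all of strain 129SvEv. The ES knockout, neuronal progenitor and TN day 2 arrays enter only through the pooled spread and the choice of probe set for genes with several. How the knockout cells were made and how many lines they represent is not given in the sources used here.

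Topoisomerase II enzymes pass one DNA duplex through a transient break in another and so remove supercoils and tangles. Mammals have 2 forms. Topoisomerase IIα, encoded by Top2a, is made in dividing cells and separates sister chromosomes, and topoisomerase IIβ, encoded by Top2b, is the form of postmitotic neurons. ICRF-193 holds either form as a closed clamp on DNA and blocks its turnover without the stabilised breaks that etoposide leaves. Long transcription units generate much supercoiling, and many neuronal adhesion, channel and receptor genes are very long.

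Expression is given as the deposited log2 value, whose base was read from its range, and a log2 change is the ICRF-193 mean minus the DMSO mean ± the standard error (SE) of a limma model of all 12 groups. A gene was called at a Benjamini-Hochberg (BH) adjusted p under 0.05 over 19938 genes. ICRF-193 called 4664 genes (23.4%), of which 1938 were higher (9.72% of all genes) and 2726 lower (13.7%). Large changes were mostly falls. Changes of at least 2-fold numbered 81 higher (0.406%) and 507 lower (2.54%), and those of at least 4-fold 11 higher and 112 lower. In 4610 of the called genes the 3 arrays of one group lay wholly above the 3 of the other. The share of all genes without overlap is not given here, so this count adds no support to the calls. Uncalled genes such as Slc17a7 and Stmn2 also had no overlap. The share of called genes that were higher was 41.6%, but 66.8% after each array was centred on its median and 53.8% after quantile normalization, so the balance of small rises and falls depends on the scaling. Counts of 1 to 3 genes on a list below moved by at most 2 genes with 1 array left out, to 0 on some lists. With 1 array left out, 1224 to 1370 of all genes were higher and 2094 to 2183 lower. The count of higher genes fell more than 1.5 times without DMSO replicate 1 (1239) or 3 (1224), or without ICRF-193 replicate 1 (1269), 2 (1281) or 3 (1230). Arrays of one group correlated at 0.9967 to 0.9969 over all genes, and arrays of different groups at 0.9793 to 0.9803.

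The markers of cortical projection neurons fitted the label in part. Neurod6, a transcription factor of cortical excitatory neurons, stood at 10.54, 10.48 and 10.64 with DMSO against a mean of 3.21 in wild-type ES cells. Tbr1, a factor of deep-layer neurons, had a DMSO mean of 10.14 against 4.63 in ES cells. The vesicular glutamate transporter gene Slc17a7 was only slightly higher, at 7.65 against 6.89. Transcripts of other cell types were present too. The GABA-synthesis gene Gad2 had a DMSO mean of 9.34 against 4.89 in ES cells, and the interneuron factor Dlx1 had 9.51 against 5.48. Astrocyte, oligodendrocyte precursor and microglial markers were also above their ES levels, with Gfap at 6.28 against 4.84, Olig2 at 7.76 against 5.08 and C1qa at 7.09 against 5.34. The endothelial markers Pecam1 and Cdh5 and the fibroblast marker Dcn lay below their ES levels. The RNA is thus that of a mixed cortical culture by these markers, and "cortical neurons" below is the label of the arrays.

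**Figure D1:**
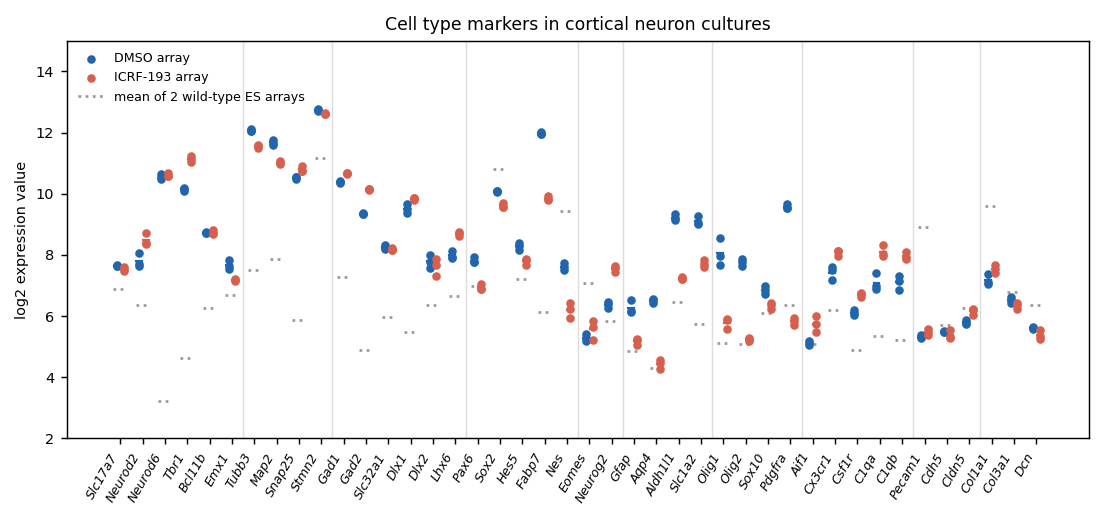
Log2 expression of cell type markers (horizontal axis, in the order projection neuron, neuron, interneuron, radial glia, intermediate progenitor, astrocyte, oligodendrocyte lineage, microglia, endothelial, fibroblast) on the 3 DMSO (blue) and 3 ICRF-193 (red) cortical arrays, with short lines at group means and a dotted line at the mean of 2 wild-type ES arrays. Olig2 and Aqp4 lie near the ES line after ICRF-193, at means of 5.24 and 4.44.

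Top2b, which encodes the form of the enzyme found in neurons, had no called change. On DMSO arrays it stood at 10.92, 10.77 and 10.88, and on drug arrays at 10.94, 11.05 and 10.95. The groups did not overlap, but the change of 0.12 ± 0.20 did not pass (adjusted p = 0.69). Top2a went from 8.76, 8.68 and 8.71 to 6.12, 6.16 and 6.15, a 5.96-fold fall (-2.57 ± 0.17, limma adjusted p = 3.13e-10). Among 11 topoisomerases and their repair factors, 2 fell and none rose. Top1, the type I enzyme that also relaxes supercoils ahead of RNA polymerase, had a change of 0.20 ± 0.08 that did not pass (adjusted p = 0.067).

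Of the 15 largest falls most were in very long neuronal genes; the others, Mfge8, Pdgfra, Scd1 and Slco1c1, are shorter and are described below. Adgrl3 (latrophilin 3, a synaptic adhesion receptor, 808.7 kb) had DMSO values of 10.41, 10.32 and 10.27 and drug values of 6.45, 6.29 and 6.41, a 15.5-fold fall (-3.95 ± 0.14, adjusted p = 1.85e-14). The drug values were near the ES mean of 6.37. Erbb4, a neuregulin receptor of 1076.7 kb, went from 10.32, 10.18 and 10.21 to 6.32, 6.61 and 6.16 (-3.87 ± 0.14). Its ligand gene Nrg3, of 1108.1 kb, went from 9.08, 9.15 and 9.05 to 5.48, 5.75 and 5.32 (-3.57 ± 0.12), falls of 14.6-fold for the receptor and 11.9-fold for the ligand. Ctnna2, which links cadherins to actin and spans 1098.2 kb, fell by 3.32 ± 0.12. Ptprd, a receptor phosphatase of synapses and the longest of these at 2270.5 kb, fell by 3.31 ± 0.22.

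Genomic span, from transcript start to end in RefSeq GRCm38.p6, was available for 19856 genes. Of 530 genes over 300 kb, 333 fell (62.8%) and 21 rose (3.96%), with a median log2 change of -0.63 against 0.04 over all genes tested. The 21 were 13 without DMSO replicate 3 or ICRF-193 replicate 1 and 36 after median centring. From 100 to 300 kb, 23.2% of 1764 genes fell, and below 10 kb 9.32% of 6999. The share rose further with length inside the longest class, at edges chosen after its values were seen. It was 59.1% of 391 genes from 300 to 600 kb, 70.6% of 85 from 600 to 1000 kb and 77.8% of 54 over 1000 kb. The class median of 100 to 300 kb, -0.03, had the opposite sign after median centring (0.06); that of the longest class did not.

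The share of genes that fell was larger at higher levels, both over 300 kb and under 10 kb. Among genes over 300 kb, 163 of 195 with a mean level over 8 fell (83.6%, median -1.06), against 148 of 237 at a level of 6 to 8 (62.4%) and 22 of 98 below 6 (22.4%). At the same high levels but under 10 kb, 348 of 1326 fell (26.2%), and from 30 to 100 kb 281 of 2046 (13.7%). Under 10 kb, 13.8% of 1899 fell at a level of 6 to 8 and 1.09% of 3774 below 6. The level is the mean of all 6 arrays, so a gene's own fall lowers it. Genes with low values have little room for a fall to be seen.

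**Figure D2:**
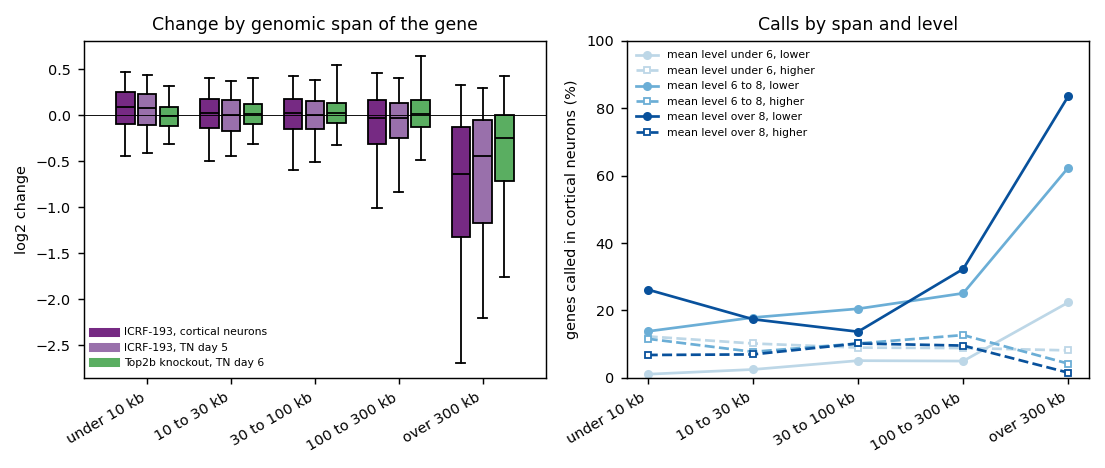
Left, log2 change by genomic span of the gene for ICRF-193 in cortical neurons, ICRF-193 at TN day 5 and Top2b knockout at TN day 6 (boxes are quartiles, whiskers the 5th and 95th percentiles of genes, lines medians). Right, the percentage of genes called lower (filled) or higher (open) in cortical neurons, by span and mean level of the 6 arrays; genes over 300 kb with a level over 8 were lower in 83.6% and higher in 1.54%.

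A few very long genes went up. Lrrtm4, a postsynaptic leucine-rich repeat protein gene of 791.3 kb, went from 7.62, 7.56 and 7.49 to 8.99, 9.09 and 8.79 (1.40 ± 0.12, adjusted p = 1.15e-08). Cntnap2, a neurexin-like adhesion gene of 2241.3 kb and about as long as Ptprd, went from 8.36, 8.26 and 8.22 to 9.18, 9.17 and 9.07 (0.86 ± 0.14, adjusted p = 6.51e-05). The zinc finger gene Tshz2 (440.2 kb), named after its values were seen, rose by 0.76 ± 0.13. Genes of like length thus moved in opposite directions; other annotated starts within these genes were not examined.

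Most short genes lying inside the span of a fallen long gene did not fall, which was also so of short genes in general. There were 58 genes of up to 100 kb wholly within one of the 333 fallen genes over 300 kb. Of these 3 fell (5.17%), 9 rose and the median change was 0.12. Over all genes, 9.32% of those under 10 kb, 12.3% from 10 to 30 kb and 12.9% from 30 to 100 kb fell. The shares that rose were 11.1%, 8.33% and 9.81%. Among the 14 of the 58 with a mean level of 6 or more, 1 fell, 6 rose and the median was 0.21. Of all genes under 10 kb, 13.8% fell and 11.6% rose at a level of 6 to 8, and 26.2% and 6.79% over 8. The examples that follow were chosen after their values were seen. Insyn2a, a gene of inhibitory synapses, lies in Dock1 (-1.33) and went from 8.53, 8.66 and 8.49 to 9.08, 9.12 and 9.08 (0.53 ± 0.08). Trim32, a ubiquitin ligase gene, lies in Astn2 (-0.43) and rose by 0.40 ± 0.11. Lrrc4, inside Snd1 (-1.06), and Cstf2t, inside Prkg1 (-1.62), had changes of 0.03 ± 0.18 and -0.06 ± 0.11 that did not pass. The array signal of an overlapping pair can be shared where probes lie in common sequence, which was not tested.

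Cell adhesion genes fell as a group along the line of length. Of 41 measured neuronal adhesion genes 24 fell and 5 rose (median -0.83). All 24 falls were among the 32 genes over 100 kb, and of the 9 shorter ones none fell and 3 rose. Ntm (neurotrimin, 968.5 kb) went from 10.89, 10.76 and 10.94 to 7.36, 7.49 and 7.48 (-3.43 ± 0.18). Tenm1, a teneurin that binds latrophilins across the synapse, fell by 3.40 ± 0.21, and Mdga2, a regulator of neuroligin binding, by 3.14 ± 0.13. The short postsynaptic organiser gene Lrrtm2, of 6.0 kb, went from 9.70, 9.80 and 9.83 to 10.40, 10.50 and 10.52 (0.70 ± 0.12). Among 25 cadherins and protocadherins, 10 fell and 3 rose. Cdh13, a cadherin anchored in the membrane by a lipid and spanning 1184.9 kb, fell by 3.35 ± 0.14, whereas the short Pcdh8 (4.5 kb) rose by 1.24 ± 0.12 and Pcdh18 (14.1 kb) by 1.29 ± 0.29.

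Axon guidance receptors fell too. Of 38 genes of this list 17 fell, 16 of them over 100 kb, and 2 rose (median -0.31). Plxna4, a semaphorin co-receptor, went from 10.74, 10.53 and 10.40 to 7.81, 7.86 and 7.93 (-2.69 ± 0.27). The ephrin receptors Epha5 (-2.54 ± 0.17) and Epha3 (-2.51 ± 0.28) and the netrin receptor Dcc (-2.43 ± 0.14) followed. Nrp2, a semaphorin receptor of 115.4 kb, rose by 0.97 ± 0.14. Among 19 neurotrophin, neuregulin and receptor genes, 7 fell, all over 100 kb, and 2 rose, 1 of them over 100 kb. The BDNF receptor gene Ntrk2 went from 9.65, 9.45 and 9.42 to 7.28, 7.49 and 7.34 (-2.14 ± 0.17), and the NT-3 receptor gene Ntrk3 fell by 1.75 ± 0.12.

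Another 29 measured genes were listed only for their extreme length, a list that the length result makes no independent evidence. Of these 22 fell and none rose (median -1.35). Nkain2, a partner of the sodium pump, fell by 3.08 ± 0.16, and Rbfox1, a neuronal splicing factor, went from 9.65, 9.62 and 9.70 to 6.85, 6.91 and 6.97 (-2.75 ± 0.15).

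Most glutamate receptor genes of the list fell. In the glutamatergic list of 26 genes 17 fell and 2 rose (median -0.61). Grm5, the metabotropic glutamate receptor mGluR5, went from 11.62, 11.42 and 11.47 to 8.06, 7.88 and 8.11, an 11.2-fold fall (-3.49 ± 0.20). Grin2b, the NMDA receptor subunit that predominates early in development, went from 10.39, 10.22 and 10.24 to 7.25, 7.38 and 7.23 (-2.99 ± 0.13). The kainate receptor gene Grik2 fell by 2.81 ± 0.17, and the presynaptic receptor gene Grm7 fell by 2.61 ± 0.12. The vesicular glutamate transporter gene Slc17a6, of 49.3 kb, rose from 9.54, 9.53 and 9.70 to 10.55, 10.51 and 10.58 (0.96 ± 0.23, adjusted p = 0.00398). Slc17a7 had a change of -0.11 ± 0.16 that did not pass.

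Some GABA receptor and channel genes fell, and a few rose. Of 12 GABA-A receptor subunits 5 fell, all over 100 kb, and 1 rose. Gabra5 went from 10.67, 10.59 and 10.67 to 8.45, 8.54 and 8.54 (-2.13 ± 0.20), Gabrb1 fell by 1.74 ± 0.22, and Gabrg1 rose by 0.73 ± 0.16. Of 27 potassium channel genes 14 fell and 2 rose (median -0.42), led by Kcnq5, an M-current subunit, from 9.57, 9.49 and 9.62 to 7.26, 7.28 and 7.37 (-2.25 ± 0.16). Of the 18 over 100 kb 12 fell and 2, Kcnj6 and Kcnk2, rose, and of the 9 shorter ones 2 fell, Kcnv1 (19.8 kb, -1.91 ± 0.20) and Kcnmb4, which was named after its value was seen. Of 23 voltage-gated sodium and calcium channel genes 6 fell and 4 rose, a mixed list with a median of 0.04. Of the 16 over 100 kb 5 fell and 3 rose. The 4 rises were 2 without DMSO replicate 1 or 2 or ICRF-193 replicate 1 or 2. Cacna2d1, an auxiliary calcium channel subunit and gabapentin target, fell by 2.82 ± 0.17, and Scn1a, a sodium channel of 170.1 kb, rose by 0.77 ± 0.15.

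The release machinery and general neuronal genes were less one-sided. Of 27 synaptic vesicle genes 10 fell and 6 rose, with a median of -0.10 that was 0.003 after quantile normalization, where 6 fell. Syt1, the calcium sensor of fast release (513.3 kb), went from 11.64, 11.60 and 11.63 to 9.30, 9.43 and 9.41 (-2.24 ± 0.12), while Rph3a rose by 0.70 ± 0.12 and Unc13b by 0.59 ± 0.10. Of 24 pan-neuronal genes 7 fell and 3 rose, with a median of -0.08 that was 0.01 after median centring. Ncam1 (-2.31 ± 0.16) and the neuronal factor gene Myt1l (-2.23 ± 0.15) fell, and the RNA-binding protein gene Elavl4 rose by 0.68 ± 0.11. Stmn2, a growth cone gene, had a change of -0.11 ± 0.14 that did not pass. The other neuron markers were called. Tubb3 (10.5 kb) fell by 0.52 ± 0.11 and Map2 (267.4 kb) by 0.67 ± 0.11, and Snap25 (69 kb) rose by 0.27 ± 0.09.

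Genes of projection neuron identity split. Of 27 listed genes 11 fell and 4 rose. Neurod1, a proneural factor, rose from 8.14, 8.02 and 8.14 to 10.47, 10.43 and 10.44, a 5.08-fold rise (2.35 ± 0.35, adjusted p = 3.12e-05). Tbr1 rose from 10.08, 10.14 and 10.20 to 11.22, 11.14 and 11.02 (0.99 ± 0.12), Pou3f2 by 0.87 ± 0.14 and Neurod2 by 0.70 ± 0.16, and all 4 that rose span under 100 kb. The proneural gene Neurog2, on the intermediate progenitor list, rose from 6.26, 6.47 and 6.39 to 7.64, 7.57 and 7.43 (1.18 ± 0.11). Ldb2, a cofactor of LIM proteins in corticospinal neurons (363.8 kb), went from 10.17, 10.18 and 10.21 to 7.14, 7.27 and 7.12 (-3.01 ± 0.23). Rasgrf2 fell by 2.86 ± 0.10, Nfib by 2.10 ± 0.17 and the activity-regulated factor gene Mef2c by 2.04 ± 0.16.

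Interneuron genes moved in both directions. Of 23 listed genes 6 fell and 3 rose. Gad2 rose from 9.36, 9.33 and 9.33 to 10.16, 10.14 and 10.12 (0.80 ± 0.11), Lhx6 by 0.70 ± 0.11 and Isl1 by 1.21 ± 0.20. Nxph1, a neurexin ligand of interneurons, fell by 3.01 ± 0.16, the calretinin gene Calb2 by 1.59 ± 0.17, the neuropeptide genes Npy by 1.36 ± 0.12 and Sst by 0.97 ± 0.11. On this list a GABA-synthesis gene thus rose while peptide genes fell.

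**Figure D3:**
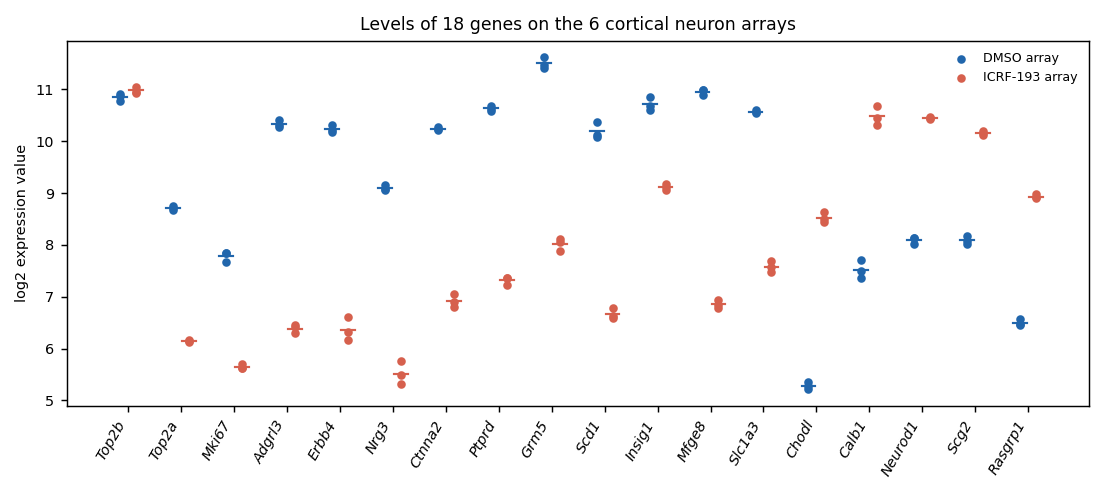
Log2 expression of 18 genes on the 3 DMSO (blue) and 3 ICRF-193 (red) cortical arrays; points are arrays and short lines group means, and heights of different genes are not comparable. Top2b alone shows no called change; Adgrl3 goes from a mean of 10.34 to 6.38 and Chodl from 5.29 to 8.52.

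The largest rises were in shorter genes of varied function. Chodl, a membrane lectin gene of 20.9 kb, went from 5.27, 5.22 and 5.36 to 8.64, 8.44 and 8.49, a 9.42-fold rise (3.24 ± 0.11, adjusted p = 6.36e-15). Calb1, the calcium buffer calbindin, went from 7.70, 7.50 and 7.37 to 10.69, 10.45 and 10.32 (2.96 ± 0.21). The rule that chose the largest rises required no overlap between groups, so the lack of overlap is no added support. Regulators of G protein and Ras signalling were among the 15 largest rises. Rgs13 rose by 2.75 ± 0.15, Rasgrp1 from 6.48, 6.56 and 6.46 to 8.98, 8.90 and 8.92 (2.43 ± 0.13), and Rasgrf1 by 1.81 ± 0.07, opposite in direction to its paralogue Rasgrf2. The granin gene Scg2 went from 8.02, 8.07 and 8.17 to 10.19, 10.12 and 10.16 (2.08 ± 0.14). Peg10, an imprinted gene of retrotransposon origin, rose by 2.07 ± 0.13, Ndp, which encodes the Wnt receptor ligand norrin, by 2.00 ± 0.19, and Deptor, an inhibitor of mTOR, by 1.77 ± 0.13. The others of the 15 were Olfm4, Mc5r, Ap1s3, Rnf152 and Slc26a7, with changes between 1.87 and 2.15.

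Genes of cell division fell almost without exception. Of 43 mitosis and G2/M genes 42 fell and none rose (median -1.16). Bub1, a spindle checkpoint kinase, went from 7.14, 7.15 and 7.08 to 4.67, 5.04 and 4.61 (-2.35 ± 0.20), and the proliferation marker Mki67 from 7.84, 7.85 and 7.66 to 5.62, 5.62 and 5.70 (-2.14 ± 0.18). Of 43 S phase genes 28 fell and none rose (median -0.50). The replicative helicase subunit gene Mcm3 went from 7.60, 7.59 and 7.44 to 5.72, 5.97 and 5.81 (-1.71 ± 0.18), and Rrm2, a subunit of ribonucleotide reductase, fell by 1.31 ± 0.17. Of 10 measured histone genes 5 fell (3 fell without ICRF-193 replicate 3), with H1f5 going from 9.58, 9.62 and 9.56 to 6.94, 7.18 and 6.97. These genes are short: 42 of the 43 on the mitosis list span at most 100 kb. In bulk RNA, fewer cells of a type and less RNA per cell cannot be told apart, here and for each cell type below.

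Promoters of these genes carry the letters of known cell cycle elements. TTTGAA is the cell cycle genes homology region bound by the MuvB complexes, CCAAT is bound by NF-Y, and TTTCGCGC and TTTGGCGC are E2F sites. Searched on both strands in RefSeq GRCm38.p6 windows from 250 bases before to 50 after the start, TTTGAA was in 73% of 37 mitosis genes with a window and in 17.3% of 15614 measured genes. CCAAT was in 75.7% of the mitosis genes against 41.7%, and an E2F site in 36.1% of 36 S phase genes against 1.31%. Among all fallen genes TTTGAA was in 16% and among risen genes in 17.8%, both close to the share of all measured genes. A match is a description, not a site. The promoters printed below were chosen among genes with a window, and the windows of a single chromosome were skipped. The 120 bases before the start are shown for the 4 fallen mitosis genes with the largest falls that hold TTTGAA there, since these are the genes that fell together, with TTTGAA and CCAAT, or their complements TTCAAA and ATTGG, in capitals. For the 3 S phase genes with the largest falls that hold an E2F site within 200 bases before the start, those bases are shown with the site in capitals; TTTCGCGC and TTTGGCGC overlap on opposite strands in Mcm5 and Mcm6.
Top2a (chr11:99024190-99024309, minus strand, GRCm38.p6): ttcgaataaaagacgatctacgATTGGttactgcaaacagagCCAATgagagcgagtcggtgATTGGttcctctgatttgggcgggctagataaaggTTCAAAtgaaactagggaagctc
Mki67 (chr7:135716380-135716499, minus strand, GRCm38.p6): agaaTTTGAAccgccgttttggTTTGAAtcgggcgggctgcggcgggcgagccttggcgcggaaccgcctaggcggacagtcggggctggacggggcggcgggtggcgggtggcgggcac
Kif11 (chr19:37376262-37376381, plus strand, GRCm38.p6): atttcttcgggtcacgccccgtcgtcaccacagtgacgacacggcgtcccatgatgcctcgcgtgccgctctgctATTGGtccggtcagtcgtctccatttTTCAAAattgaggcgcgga
Prc1 (chr7:80294356-80294475, plus strand, GRCm38.p6): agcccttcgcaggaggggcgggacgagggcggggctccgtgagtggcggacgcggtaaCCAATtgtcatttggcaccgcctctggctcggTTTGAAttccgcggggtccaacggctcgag
Uhrf1 (chr17:56304113-56304312, plus strand, GRCm38.p6): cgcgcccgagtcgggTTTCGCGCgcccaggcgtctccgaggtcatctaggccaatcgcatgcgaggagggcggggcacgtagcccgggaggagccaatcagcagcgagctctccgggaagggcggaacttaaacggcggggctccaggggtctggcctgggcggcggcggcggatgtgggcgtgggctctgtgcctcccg
Mcm5 (chr8:75109309-75109508, plus strand, GRCm38.p6): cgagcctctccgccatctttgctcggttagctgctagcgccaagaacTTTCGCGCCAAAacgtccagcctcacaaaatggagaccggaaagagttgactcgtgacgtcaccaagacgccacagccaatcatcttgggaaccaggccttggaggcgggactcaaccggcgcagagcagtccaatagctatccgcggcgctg
Mcm6 (chr1:128359706-128359905, minus strand, GRCm38.p6): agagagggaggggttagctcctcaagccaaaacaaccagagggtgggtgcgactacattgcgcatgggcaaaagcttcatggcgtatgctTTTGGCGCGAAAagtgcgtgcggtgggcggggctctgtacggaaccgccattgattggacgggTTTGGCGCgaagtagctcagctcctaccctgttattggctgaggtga
In Top2a TTCAAA starts at position -23 from the transcript start, behind 3 CCAAT boxes, and in Kif11 (-1.90 ± 0.20) at -19. Prc1 (-1.75 ± 0.19), which bundles spindle microtubules, has it at -30, and Mki67 holds it at -116 and -98. The epigenetic regulator gene Uhrf1 went from 7.57, 7.28 and 7.18 to 5.54, 5.74 and 5.80 (-1.65 ± 0.16), and the helicase genes Mcm5 and Mcm6 had changes of -1.04 ± 0.14 and -0.84 ± 0.10; Kif11, Prc1, Mcm5 and Mcm6 were named after their values were seen.

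The p53 targets moved in both directions, and the called repair genes nearly all fell. Of 27 p53 targets 6 rose and 7 fell (median 0.04, as over all genes); without ICRF-193 replicate 3, 3 rose and the median was -0.007, and after quantile normalization 4 fell. Trp53inp1 went from 9.32, 9.44 and 9.44 to 10.28, 10.24 and 10.14 (0.82 ± 0.08), and Eda2r rose by 0.81 ± 0.21, while Plk3 fell by 0.92 ± 0.15. Of 23 damage kinase and repair genes 11 fell and 1, Trp53bp1, rose (0.39 ± 0.07), with a median of -0.36. The falls numbered 7 without ICRF-193 replicate 2 and 7 after median centring, where 4 rose. The checkpoint kinase gene Chek1 (-0.99 ± 0.12) and the recombination gene Brca1 (-0.85 ± 0.12) were among those that fell.

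Many progenitor and astrocyte genes fell. Of 25 radial glia genes 13 fell and 2 rose (median -0.66). Fabp7, a lipid-binding protein of radial glia, went from 11.96, 11.96 and 12.02 to 9.91, 9.78 and 9.81 (-2.15 ± 0.43), while Id4, an inhibitor of helix-loop-helix factors, rose by 0.82 ± 0.11. Of 24 astrocyte genes 16 fell and none rose (median -1.20). Slc1a3, the glutamate transporter GLAST, went from 10.55, 10.57 and 10.60 to 7.47, 7.58 and 7.68 (-3.00 ± 0.19), the acyl-CoA synthetase gene Acsbg1 from 8.90, 9.20 and 9.09 to 6.48, 6.52 and 6.40 (-2.60 ± 0.21), and Aldoc, an aldolase of astrocytes, by -2.42 ± 0.22. The list's summed level, adding each gene's value off the log scale, was 16443 to 16875 on DMSO arrays and 7056 to 7348 on drug arrays. Mfge8, a phagocytosis bridge protein made by astrocytes and other cells, had the largest fall of all named genes, from 10.99, 10.89 and 10.99 to 6.79, 6.84 and 6.93 (-4.11 ± 0.25, 17.2-fold). The thyroid hormone and anion transporter gene Slco1c1 went from 8.61, 8.56 and 8.61 to 5.07, 5.31 and 4.88 (-3.51 ± 0.14).

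Several oligodendrocyte precursor markers fell. Of 19 genes of the lineage 7 fell, none rose and 12 were not called, and the median of -0.14 was -0.05 after median centring. Pdgfra, the growth factor receptor of precursors, went from 9.67, 9.52 and 9.52 to 5.85, 5.93 and 5.70 (-3.75 ± 0.41), below its ES mean of 6.35. Olig2 went from 7.64, 7.77 and 7.86 to 5.26, 5.18 and 5.28 (-2.52 ± 0.17), and its neighbour Olig1 fell by 2.28 ± 0.18 to a mean of 5.79, above its ES mean of 5.11. The list's summed level was 2853 to 3039 with DMSO and 1335 to 1440 with ICRF-193.

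Microglial genes went the other way. Of 19 genes 12 rose and 1 fell (median 0.63). The complement gene C1qa went from 6.99, 7.40 and 6.89 to 8.31, 7.95 and 8.02 (1.0 ± 0.17), C1qc from 7.28, 7.45 and 7.32 to 8.28, 8.32 and 8.29 (0.95 ± 0.18), and the adaptor gene Tyrobp rose by 0.77 ± 0.20. The summed level was 1628 to 1732 with DMSO and 2649 to 2858 with ICRF-193. Of 17 interferon-stimulated genes 4 rose and 1 fell; the rises numbered 2 without ICRF-193 replicate 3 or after quantile normalization, and none with the low-value filter. Of 19 endothelial and mural genes 2 rose and 1 fell, and no gene rose without DMSO replicate 1 or 3 or ICRF-193 replicate 1 or 2. Of 20 fibroblast and meningeal genes 1 rose and 2 fell. Some genes are on several lists and count on each. Slc1a3 is on the radial glia and astrocyte lists, and Pdgfra on the oligodendrocyte and fibroblast lists. Most genes of the cell cycle and astrocyte lists, 13 of 25 of the radial glia list and 7 of 19 of the oligodendrocyte list were thus lower, and 12 of 19 of the microglial list higher, in the same arrays as the neuronal changes; the part of cell composition in the neuronal results was not tested.

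Nearly all genes of lipid synthesis fell. Of 25 cholesterol and fatty acid genes 23 fell and none rose (median -0.87). Scd1, the desaturase that makes oleate, went from 10.09, 10.12 and 10.38 to 6.58, 6.79 and 6.63, an 11.5-fold fall (-3.53 ± 0.23). Mvd, of the mevalonate pathway, went from 9.98, 10.06 and 10.13 to 8.11, 8.27 and 8.33 (-1.82 ± 0.15). Insig1, the sterol sensor's retention protein, fell by 1.60 ± 0.13, and the lanosterol synthase gene Lss by 1.39 ± 0.18. Only 2 of the 25 genes span over 100 kb. CCAAT was in 83.3% of the 18 with a promoter window, against 41.7% of all measured and 46.1% of all fallen genes with one. Whether it bears on the falls was not tested. Cholesterol synthesis is high in astrocytes of the cortex, and the astrocyte list fell in the same arrays, from a mean level of 8.29 to 8.36 with DMSO to 7.18 to 7.19 with ICRF-193; its part was not tested.

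Metabolic and stress genes also declined. Of 27 ATF4 and ER stress genes 14 fell and 1 rose (median -0.31). The cystine transporter gene Slc7a11 went from 6.19, 5.82 and 5.96 to 4.37, 4.67 and 4.85 (-1.36 ± 0.16), and Phgdh, the first enzyme of serine synthesis, from 8.40, 8.59 and 8.64 to 7.65, 7.55 and 7.30 (-1.04 ± 0.12). Of 32 subunits of mitochondrial complexes I, III and IV 16 fell and none rose, by small amounts (median -0.26). The falls numbered 10 after median centring and 26 with array weights. Ndufb9, a complex I subunit gene, fell by 0.61 ± 0.08. Of 22 cytosolic ribosomal protein genes 1 fell, and the list's median of -0.07 was 0.03 after median centring.

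Activity genes and secreted signals changed individually. Of 25 immediate early and activity genes 6 rose and 5 fell, and the median of -0.01 was 0.09 after median centring. Nptx2, a pentraxin that clusters AMPA receptors, went from 6.89, 6.91 and 6.93 to 7.86, 7.82 and 7.83 (0.93 ± 0.16), Jun rose by 0.79 ± 0.20, Npas4 by 0.77 ± 0.11 and Fos by 0.67 ± 0.16. Inhba, which encodes the activin A subunit, went from 8.34, 8.30 and 8.42 to 5.41, 5.40 and 5.36 (-2.96 ± 0.35), and Nr4a2 fell by 0.97 ± 0.23. Of 24 neuropeptide and granin genes 4 fell and 3 rose (1 rose without DMSO replicate 1 or 2 or any 1 of the ICRF-193 arrays), with Vgf at -1.15 ± 0.14. Of 30 Notch, BMP and Wnt genes 9 fell and 3 rose, with Sfrp1, a secreted Wnt antagonist, at -1.25 ± 0.26 and Id2 at 0.43 ± 0.11.

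**Figure D4:**
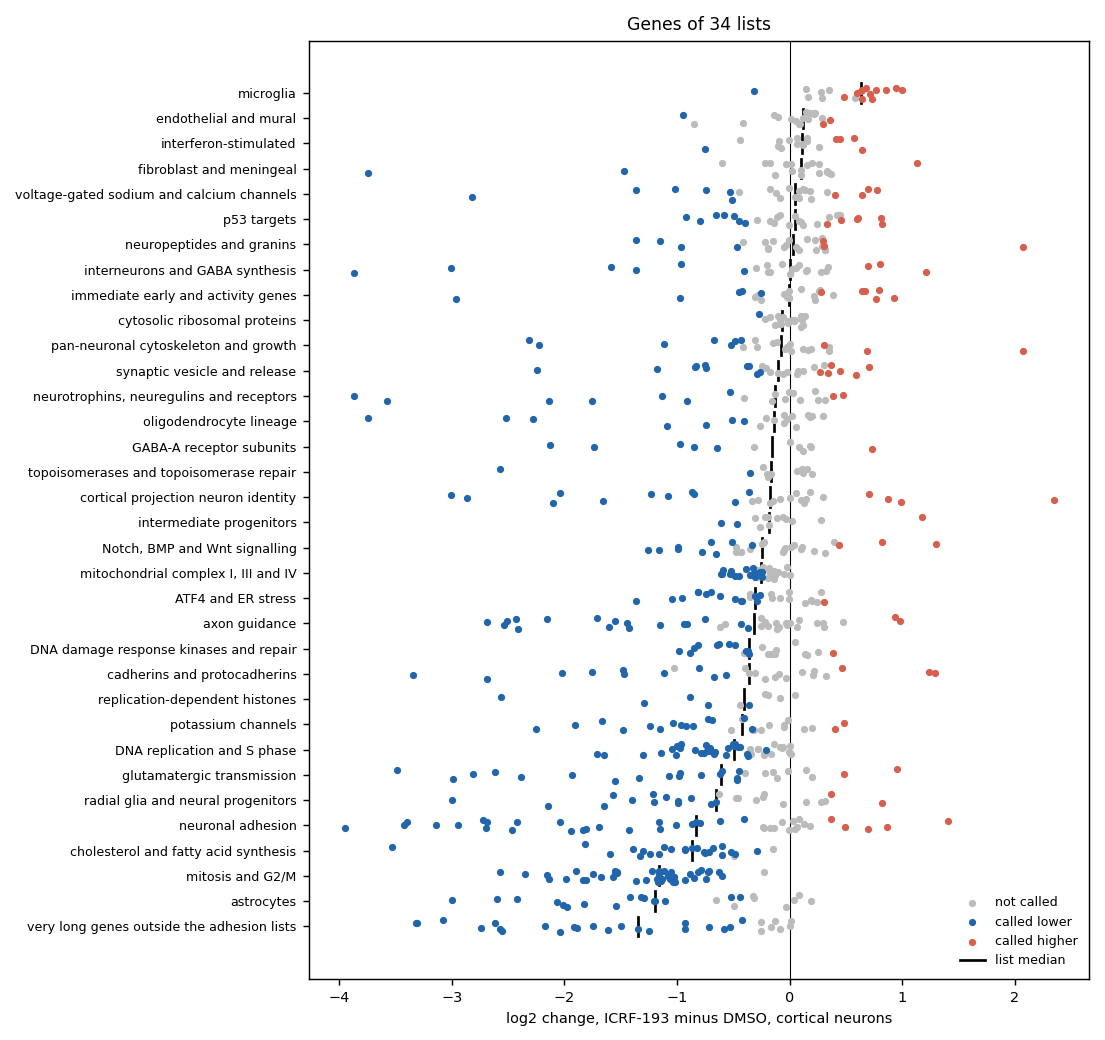
Log2 change in cortical neurons of each measured gene of 34 lists, ordered by the list median (black line); red points were called higher, blue lower and grey not called. The longest run of falls is in the very long gene, astrocyte and mitosis lists, with medians of -1.35, -1.20 and -1.16, and the microglial median is 0.63.

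The same drug in neurons derived from ES cells at TN day 5 called 1772 genes (8.89%), 501 higher (2.51%) and 1271 lower (6.37%). The groups there have 2 arrays each, and no array is shared with the cortical comparison. Of the 2726 genes lower in cortical neurons 774 were lower at TN day 5 too, which is 28.4% of the cortical and 60.9% of the TN day 5 genes. Of the 1938 higher genes 149 were shared, 7.69% and 29.7%. Long genes were lower in both. Of genes over 300 kb 44.5% were lower at TN day 5. At TN day 5 and in cortical neurons Adgrl3 changed by -4.13 and -3.95, Nrg3 by -3.25 and -3.57, Ctnna2 by -3.15 and -3.32, and Ptprd by -3.21 and -3.31. For these 4 genes the difference between cultures did not pass.

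A test of the difference between the 2 drug effects called 871 genes (4.37%). Of these 486 were lower in cortical neurons, 212 higher and 173 not called there, and 72 had opposite calls. Long genes were among them. Of those over 300 kb, 85 had a lower (16%) and 41 a higher (7.74%) cortical effect, against 2.68% and 1.69% of all genes. Grm5 changed by -3.49 in cortical neurons and -0.91 at TN day 5 (adjusted p of the difference 1.62e-05), and Ntm by -3.43 and -1.76 (0.000668). Cdh12, a cadherin of 1149.5 kb, went from 8.74, 8.64 and 8.59 to 5.83, 6.26 and 5.79 in cortical neurons (-2.69 ± 0.14), against an uncalled 0.29 at TN day 5. The same was so of the channel regulator gene Fgf14, with -2.56 against 0.08, and of Ldb2, with -3.01 against -0.32. At TN day 5 the DMSO mean was 5.13 for Cdh12 and 6.66 for Ldb2, against 8.65 and 10.19 in cortical neurons. A lower starting level limits the fall that can be seen, and its part was not tested.

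The glial markers Olig2 and Aqp4 differed between the cultures. Olig2 changed by 0.02 at TN day 5, where its DMSO mean of 5.21 was already at the ES level, and Aqp4 by -0.04 from a DMSO mean of 4.73. The difference of effects was -2.54 ± 0.27 for Olig2 and -2.02 ± 0.15 for Aqp4. Of the astrocyte list 6 genes fell and 1 rose at TN day 5, and of the oligodendrocyte list none. Mfge8 changed by 0.16 there and Slco1c1 by 0.14. Fabp7 and Sox2, both of neural progenitors, went further down at TN day 5 (-5.23 and -3.67) than in cortical neurons, where Fabp7 fell by 2.15 and Sox2 had -0.46 ± 0.22 (adjusted p = 0.14). On cortical arrays Sox2 stood at 10.07, 10.10 and 10.08 with DMSO and at 9.58, 9.71 and 9.58 with the drug. Its test uses the pooled spread, which includes standard deviations of 0.436 (DMSO) and 0.412 (ICRF-193) at TN day 5. Scd1 fell in both cultures, with changes of -3.53 and -1.10 and a difference of -2.43 ± 0.36.

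Several genes that rose in cortical neurons fell at TN day 5. In cortical neurons and at TN day 5, Slc17a6 changed by 0.96 and -1.54, Pou3f2 by 0.87 and -1.70, Fos by 0.67 and -1.49, and Npas4 by 0.77 and -0.80. Npy did the opposite, with -1.36 and 0.70. Other large cortical rises had no called counterpart at TN day 5. Chodl had -0.05 there, Calb1 0.15, Neurod1 -0.19, Rasgrp1 0.13 and Scg2 -0.56, and the difference passed for each.

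**Figure D5:**
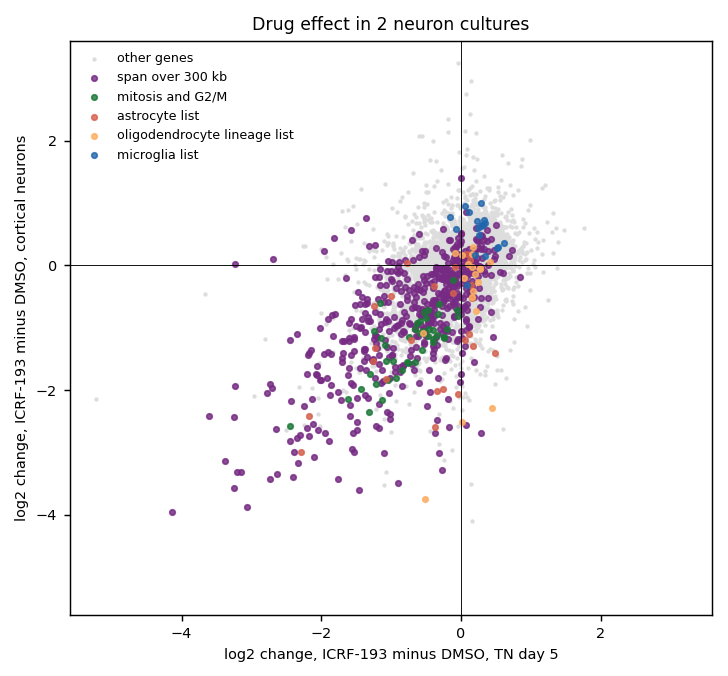
Log2 change with ICRF-193 at TN day 5 (horizontal, 2 arrays a group) and in cortical neurons (vertical, 3 arrays a group), 1 point a gene, with genes over 300 kb and 4 lists in colour. Genes over 300 kb extend to the lower left, Adgrl3 being at -4.13 and -3.95, and oligodendrocyte genes such as Olig2 lie low only on the vertical axis, at 0.02 and -2.52.

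In Top2b knockout against wild-type neurons at TN day 6, 2030 genes were called (10.2%), 1072 higher (5.38%) and 958 lower (4.8%). Of the 2726 genes lower with the drug in cortical neurons 337 were lower in the knockout (12.4% of the cortical and 35.2% of the knockout genes) and 385 higher (14.1% and 35.9%). Of genes over 300 kb 37.4% were lower in the knockout, and of the 24 adhesion genes that fell in cortical neurons 20 fell and none rose, as with Adgrl3 (-2.46), Nrg3 (-2.50) and Ctnna2 (-1.90). Of the 42 mitosis genes that fell with the drug, 40 rose in the knockout, with Top2a at 1.78 and Mki67 at 1.17. Of the 16 fallen astrocyte genes 6 rose and none fell there. Of the 23 fallen cholesterol and fatty acid genes 3 fell and none rose. The knockout differs from the drug arrays in culture, day and duration, and the difference of these effects was not tested.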

How the data were processed

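RNA was extracted with the RNeasy kit and labelled by the Affymetrix whole-transcript assay, per the labels' protocols. The deposited table holds log2 expression values of 35556 probe sets on 28 arrays, which the authors produced using oligo (version 1.14.0 in the submitters' processing notes). Background correction, summarization, log base and genome build are not stated in the sources used. Values of 1.96 to 13.99 were read as base 2, and no further normalization was applied. Of the probe sets 21789 carried 1 gene symbol in the platform annotation, 1621 several and 12146 none. The probe set with the highest mean was kept for each of the 999 genes with more than 1, giving 19938 genes. With limma 3.58.1 (R 4.3.3) each gene had 12 group means estimated from the 28 arrays together (16 residual and 4.87 prior degrees of freedom), with two-sided moderated tests and BH adjustment. Fitting all groups makes the error of a gene a pooled one. Tested on simulated data of the cortical comparison with 200 of 19938 genes changed, the fit recovered 63% at a log2 change of 0.5 and 98% at 1, with 5 false calls. The simulated share of changed genes was far below the 23.4% called in the cortical comparison, so these rates need not hold there. The number of arrays limits the precision. Promoters and spans come from RefSeq GRCm38.p6.

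The members, the 34 gene lists and the tests were chosen with earlier results of these data known. Genes named are the 15 largest called rises and falls without overlap between groups and with a mean of at least 6 in the higher group (predicted, olfactory and small RNA genes left out), up to 4 members per list and direction, Top2a and Top2b, the 5 largest differences each way from TN day 5, the cell type markers, and those said to be named after their values were seen. The alternatives tried were the fit on only the arrays compared, median centring, quantile normalization, a low-value filter, the mean of probe sets, array weights, a robust trended variance prior, a replicate block and leaving out each array.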

Additional observations from a re-analysis of the deposited data

Results flagged for a closer look

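The ICRF-193 effect differed between cortical neurons and TN day 5 for 871 genes by the test of the difference (limma, BH). Values here are the cortical minus the TN day 5 log2 effect. Among genes set side by side, those with the higher cortical effect were Chodl (3.28), Ebf1 (3.25), Sox2 (3.21), Fabp7 (3.08), Calb1 (2.82), Scg2 (2.64), Pou3f2 (2.57), Neurod1 (2.53), Slc17a6 (2.5), Fos (2.16) and Npas4 (1.57). Ebf1, a transcription factor gene, was at 5.18, 4.96 and 5.04 with DMSO and not called in cortical neurons, and fell at TN day 5.

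Those with the lower cortical effect included glial and transporter genes, with Mfge8 at -4.27, Slco1c1 at -3.64, Pdgfra at -3.23, Olig2 at -2.54, Scd1 at -2.43 and Aqp4 at -2.02. They also included long genes, with Luzp2 at -3.00, Cdh12 at -2.98, Ldb2 at -2.69, Fgf14 at -2.64, Grm5 at -2.58, Rasgrf2 at -2.55, Ntm at -1.67 and Erbb4 at -0.80. Of these, Cdh12 and Ldb2 started from lower DMSO means at TN day 5 than in cortical neurons, as given above. The inward-rectifier channel gene Kcnj2 (10.7 kb) was at -3.24: it went from 7.75, 7.63 and 7.50 to 4.99, 4.95 and 5.05 in cortical neurons and rose by 0.61 at TN day 5. The neuropeptide gene Npy was at -2.06.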

How the results depend on the processing

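No named gene that was called changed sign under any alternative. Of 200 named genes that were called, 172 kept the call in every alternative run and 28 lost it in 1 or more; the report gives no value of those 28. The cortical count of 4664 became 8967 with array weights (4621 higher, 4346 lower) and 7960 in the fit of only the 6 arrays (3920 higher), and 3321 to 3553 with 1 array left out (1224 to 1370 higher). Median centring gave 3925 higher and 1952 lower. The low-value filter gave 1338 higher and 2791 lower, 32.4% higher, array weights 51.5% higher and the fit of only the 6 arrays 49.2%. The median change over all genes was 0.043, and 0.136 after median centring. At TN day 5 the count of 1772 became 742 with array weights and 385 in the fit of only its 4 arrays, and lay between 684 and 2291 with 1 array left out, the lowest without DMSO replicate 2 (684) and then ICRF-193 replicate 1 (868). The knockout count of 2030 became 3816 with array weights. The cause of these moves was not tested.

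Replicate numbers are shared by the groups but did not pair the cortical arrays, since deviations of same-numbered arrays correlated at -0.062, -0.013 and -0.014. With the replicate block 4235 cortical genes were called, 1782 higher and 2453 lower.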
